A study of Mus musculus with 9 samples.

Results

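Genes that encode the sensors of double-stranded RNA (dsRNA), the signalling adaptor below them and the enzymes that bind or edit dsRNA were followed in mouse large intestine with and without reduced Dhx9. The 10 genes are Ifih1, Ddx58 (also named Rigi), Dhx58, Mavs, Tlr3, Eif2ak2, Zbp1, Adar, Adarb1 and Tarbp2. They were chosen by name, each has 1 probe set matched through its Entrez Gene number, and they stand among 24011 genes with a symbol. All 10 passed the filter on low levels (mean log2 level of at least 5.28), which left 16808 genes for testing. The series asks how gene expression in the large intestine differs when DHX9, a helicase that unwinds RNA and DNA, is reduced.

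All mice were kept on the C57BL/6 background and carried a short hairpin RNA together with rtTA, the activator that needs doxycycline. Control mice carried the hairpin FLuc.1309 against firefly luciferase, which mice lack. The knockdown mice carried 1 of 2 hairpins against Dhx9, DHX9-1271 or DHX9-837. Each of the 3 groups held 3 arrays, and all mice, controls included, drank doxycycline at 1 mg/ml with 5% sucrose for 14 days from 4 weeks of age. The sources used here do not give the promoter that drives rtTA, the number of founder lines or the part of the gut wall taken. RNA from bulk tissue cannot tell fewer cells of a type from less RNA per cell. Nothing in the labels ties each replicate to its own animal, and p-values therefore reflect only the spread among these arrays, which may be technical.

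Dhx9 itself was lower on every knockdown array (log2 8.18 to 8.27 in DHX9-1271 and 8.19 to 8.22 in DHX9-837) than on every control array (9.18 to 9.32), at 49.6% and 48.8% of the control signal. Array medians lay between 6.24 and 6.28. All 10 epithelial markers and all 6 smooth muscle markers passed the level filter.

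Long dsRNA is rare in healthy cytoplasm and is read as a sign of viral infection. The helicases MDA5 (Ifih1) and RIG-I (Ddx58) bind it and signal through MAVS on mitochondria to induce interferons, while TLR3 detects it in endosomes, PKR (Eif2ak2) stops translation, and ZBP1 senses Z-form nucleic acid and can start cell death. ADAR enzymes convert adenosine to inosine within dsRNA and so keep the cell's own transcripts from being sensed. Many of these genes are themselves induced by interferon, and DHX9 is a dsRNA-binding helicase that works on some of the same structures.

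Because interferon acts on such genes through the interferon-stimulated response element, the region from 250 bases before to 50 after each transcription start was searched on both strands for the core of that element, GAAA and GAAA with any 2 bases between them. RefSeq promoters (build GRCm38.p6) were found for 8 of the 10 genes, all but Dhx58 and Zbp1, which were not searched, and 3 of the 8 held the core, against 3.99% of 27025 genes with such a window. The matches are printed with their neighbouring bases as a description of the letters, and they are not shown to be used in this tissue. The capitals mark the core, which for Ddx58 reads on the opposite strand.
Ifih1: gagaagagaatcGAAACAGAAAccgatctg
Ddx58: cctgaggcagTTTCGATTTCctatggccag
Eif2ak2: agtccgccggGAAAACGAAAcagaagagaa
The stretches lie at chr2:62646206-62646235 (Ifih1), chr4:40239804-40239833 (Ddx58) and chr17:78882535-78882564 (Eif2ak2), all on the minus strand. The core starts 33, 3 and 19 bases into the transcript, counting the start as 1. The gamma-activated site TTCNNNGAA, through which interferon-gamma acts, was found in Eif2ak2 and in 1 of 3 Adar windows, against 9.55% of all genes. No match says only that these letters are not in the window searched.

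With DHX9-837, the sensors TLR3, MDA5, LGP2 (Dhx58) and ZBP1 were lower at the RNA level than in controls, and Mavs, Adar, Adarb1 and Tarbp2 did not pass the test. Zbp1 had 60.4% of the control signal, Dhx58 68.1%, Tlr3 77.0% and Ifih1 81.9%. With DHX9-1271, Eif2ak2 was the 1 gene of the 10 that passed, at 126% of control. Limma's moderated test over all 16808 genes, with Benjamini-Hochberg adjustment and a call at an adjusted p under 0.05, gave 4 falls and 0 rises with DHX9-837 (7 falls and 0 rises at an unadjusted p under 0.05). The 4 calls became 1 (Tlr3) without control replicate 1 or 3 or with only the compared groups in the fit, and 2 without DHX9-837 replicate 1 or 2. Over all genes tested, 15.6% were called in that comparison, 6.91% down and 8.67% up. With DHX9-1271 it gave 1 rise and 0 falls (1 and 1 at an unadjusted p under 0.05), against 4.41% of all genes called, 2.83% up and 1.58% down. With arrays scaled by cyclic loess the calls over all genes in DHX9-1271 were 425 up and 366 down, in place of 475 and 266. The median log2 fold of the 10 genes was -0.23 with DHX9-837 and 0.032 with DHX9-1271, where all genes had -0.0012 and 0.0057. With DHX9-837, 7 of the 10 genes had all arrays below all controls and 0 above, against 14.3% and 17.1% of all genes (31.4% either way). With DHX9-1271, 3 had all arrays above and 2 below, against 15.4% and 10% of all genes (25.5% either way). Both comparisons use the same control arrays.

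**Figure D1:**
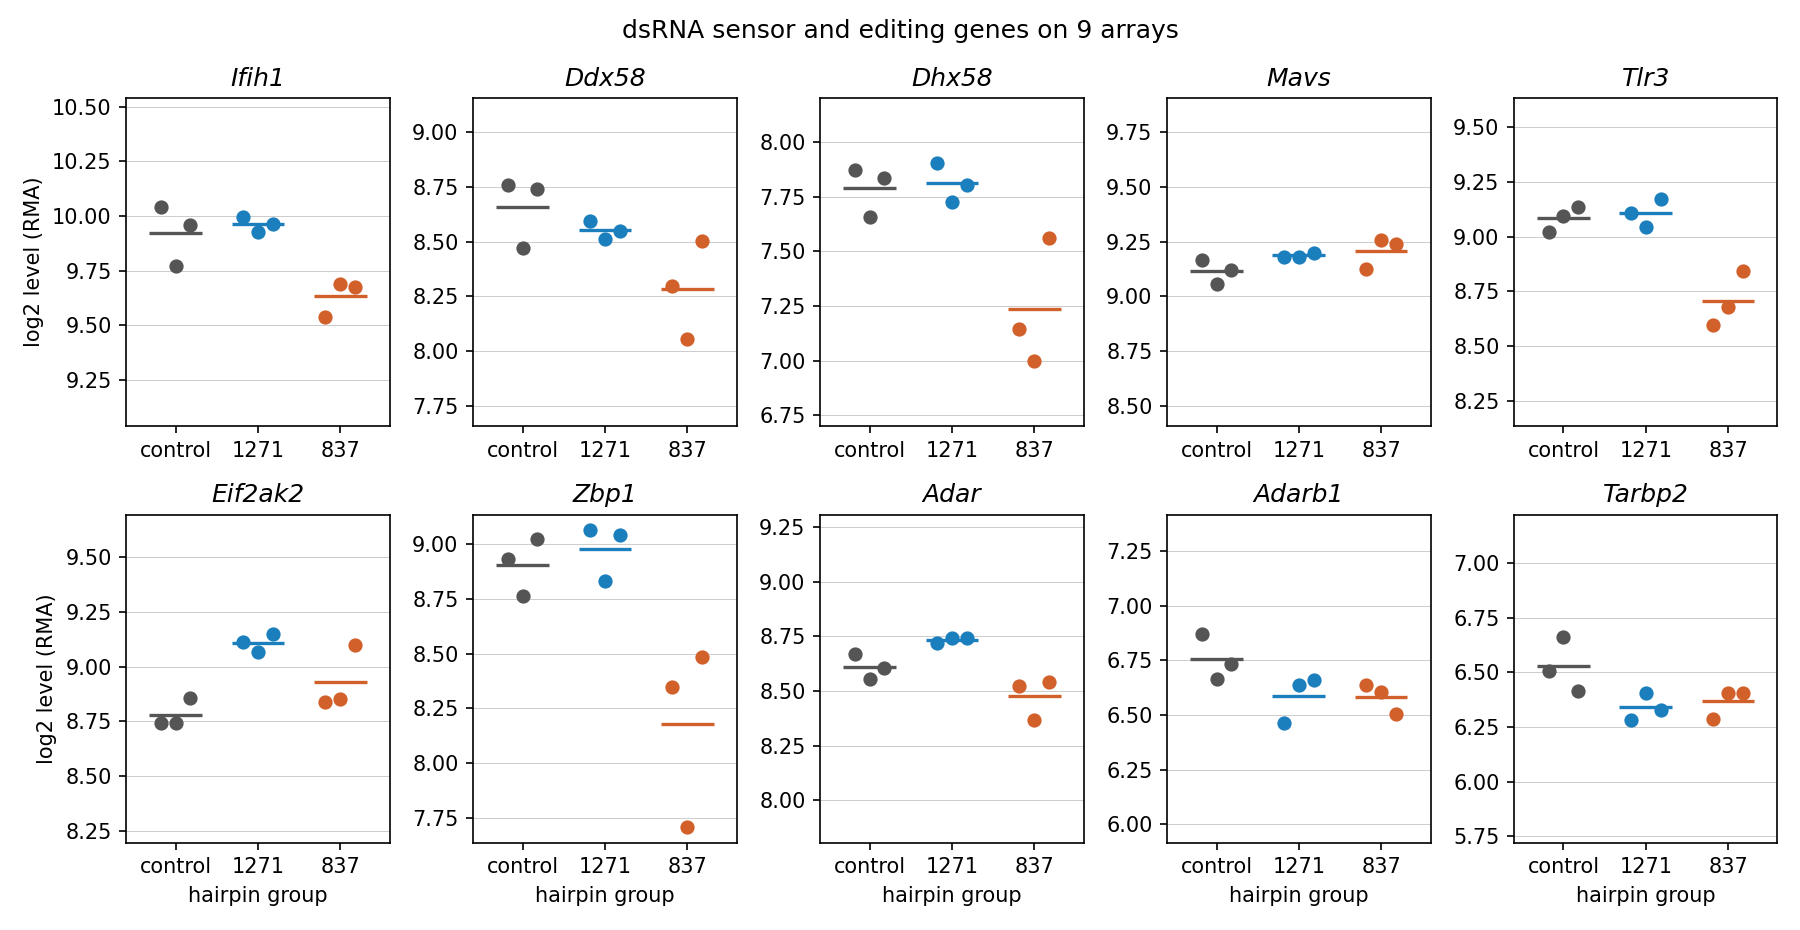
Log2 RMA level (vertical axis, with the same span in every panel) of each of the 10 genes on the 9 arrays, by hairpin group. Points are arrays (replicates 1 to 3 from left to right) and bars are group means. The DHX9-837 arrays of Tlr3, Ifih1, Dhx58 and Zbp1 lie below all control arrays, and Tlr3 runs from 8.60 to 8.84 there.

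Among the RIG-I-like receptors, Ifih1 encodes MDA5, which binds long dsRNA. Its log2 level was 10.04, 9.77 and 9.96 in control replicates 1 to 3, 9.99, 9.93 and 9.96 with DHX9-1271, and 9.54, 9.69 and 9.67 with DHX9-837. The DHX9-837 arrays all lay below the control arrays, whereas the DHX9-1271 arrays lay among them. The log2 fold was -0.29 with DHX9-837 (SE 0.074, 95% interval -0.46 to -0.12, adjusted p = 0.0316 by limma) and 0.039 with DHX9-1271 (SE 0.074, interval -0.13 to 0.21, adjusted p = 0.812). The DHX9-837 call was close to the threshold. It ended without control replicate 1 (adjusted p = 0.0881), control replicate 3 (0.0842), DHX9-1271 replicate 3 (0.0551), or DHX9-837 replicate 1 (0.0976), replicate 2 (0.0536) or replicate 3 (0.0607), and also with only the arrays of those groups in the fit (0.0843) and with no level filter (0.0554).

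Dhx58 encodes LGP2, which binds dsRNA but lacks the signalling domains of the other receptors of its family. Controls had log2 levels of 7.87, 7.66 and 7.83, and DHX9-1271 had 7.90, 7.72 and 7.80. DHX9-837 had 7.14, 7.0 and 7.56, with replicate 3 nearest to the controls and no overlap. Dhx58 fell by 0.55 on the log2 scale with DHX9-837 (SE 0.13, 95% interval -0.85 to -0.25, adjusted p = 0.0238 by limma). With DHX9-1271 its log2 fold was 0.022 (SE 0.13, interval -0.28 to 0.32). The fall lost its call without control replicate 1 (adjusted p = 0.0749), control replicate 3 (0.0680), DHX9-837 replicate 1 (0.0756) or DHX9-837 replicate 2 (0.0675). It also lost it with only those groups in the fit (0.0639).

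Ddx58 encodes RIG-I, which recognises the triphosphate ends of short dsRNA. It had 8.76, 8.47 and 8.74 in controls, 8.59, 8.51 and 8.55 with DHX9-1271, and 8.30, 8.05 and 8.50 with DHX9-837. Its groups overlapped, since DHX9-837 replicate 3 lay above control replicate 2. The log2 fold was -0.37 with DHX9-837 (SE 0.12, 95% interval -0.64 to -0.11, adjusted p = 0.0604 by limma), which did not pass, and -0.11 with DHX9-1271 (interval -0.37 to 0.16). Ddx58 passed with DHX9-837 when control replicate 2 (adjusted p = 0.0327) or DHX9-837 replicate 3 (0.0261) was left out, and also with the filter at the 50th percentile (0.0423), with cyclic loess (0.0497) and with trend and robust moderation (0.0383).

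Mavs encodes the adaptor through which MDA5 and RIG-I signal. Its levels spanned 9.05 to 9.16 in controls, 9.18 to 9.20 with DHX9-1271 and 9.12 to 9.26 with DHX9-837. The DHX9-1271 arrays lay just above the controls and those of DHX9-837 overlapped them. Neither log2 fold passed, at 0.073 (95% interval -0.045 to 0.19) with DHX9-1271 and 0.094 (interval -0.025 to 0.21) with DHX9-837.

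Tlr3, the endosomal receptor, had the smallest p of the 10 genes with DHX9-837. Its log2 level was 9.02, 9.09 and 9.14 in controls, 9.11, 9.05 and 9.17 with DHX9-1271, and 8.60, 8.68 and 8.84 with DHX9-837. DHX9-1271 overlapped the controls, with its replicate 3 above them, and DHX9-837 lay below both groups. Tlr3 fell by 0.38 with DHX9-837 (SE 0.070, 95% interval -0.54 to -0.22, adjusted p = 0.00797 by limma), and its log2 fold with DHX9-1271 was 0.025 (interval -0.13 to 0.18). The call against control held under all 17 alternatives, with a log2 fold between -0.45 and -0.32 and an adjusted p between 0.00282 and 0.0294.

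Zbp1 encodes the sensor of Z-form RNA and DNA that can start necroptosis. It had the largest fall of the 10 and also the widest spread. Controls had 8.93, 8.77 and 9.02, DHX9-1271 had 9.06, 8.83 and 9.04, and DHX9-837 had 8.35, 7.71 and 8.48. Replicate 2 of DHX9-837 was the lowest of the 9 arrays, and the other DHX9-837 arrays were still below every control. Zbp1 fell by 0.73 with DHX9-837 (SE 0.18, 95% interval -1.14 to -0.32, adjusted p = 0.0270 by limma), or by 0.49 without that replicate (adjusted p = 0.0215). With DHX9-1271 the log2 fold was 0.071 (interval -0.34 to 0.48). The DHX9-837 call ended without control replicate 1 (adjusted p = 0.0745) or control replicate 3 (0.0809), and with only those groups in the fit (0.0700).

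Eif2ak2 encodes PKR, the dsRNA-activated kinase that phosphorylates eIF2-alpha. It was the 1 gene of the 10 that rose in a comparison with control. Its log2 level was 8.74, 8.74 and 8.86 in controls, 9.11, 9.07 and 9.15 with DHX9-1271, and 8.84, 8.85 and 9.10 with DHX9-837. All DHX9-1271 arrays lay above the controls, and DHX9-837 overlapped them through control replicate 3. The log2 fold was 0.33 with DHX9-1271 (SE 0.075, 95% interval 0.16 to 0.50, adjusted p = 0.0450 by limma) and 0.15 with DHX9-837 (SE 0.075, interval -0.020 to 0.32, adjusted p = 0.219). The DHX9-1271 call was lost in 10 of 17 alternatives. These were leaving out any control array (adjusted p = 0.120, 0.0935 and 0.0580 for replicates 1 to 3), any DHX9-1271 array (0.113, 0.114 and 0.161) or DHX9-837 replicate 1 or 2 (0.0563 and 0.0601), using no level filter (0.0796), and centring each array on its median (0.0561).

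Adar encodes ADAR1, the main editor of dsRNA and a brake on MDA5, PKR and ZBP1. It had 8.67, 8.56 and 8.61 in controls, 8.72, 8.74 and 8.74 with DHX9-1271, and 8.52, 8.37 and 8.54 with DHX9-837. The groups did not overlap, with DHX9-1271 above the controls and DHX9-837 below them. Neither shift passed against control, with log2 folds of 0.12 (SE 0.058, 95% interval -0.0060 to 0.26, adjusted p = 0.264 by limma) and -0.13 (interval -0.26 to -0.00077, adjusted p = 0.164). Arrays of this kind measure the amount of Adar RNA and not the editing of any transcript, nor the balance of the long, interferon-induced ADAR1 form and the short form.

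Adarb1 encodes ADAR2, which edits coding sites in neurons above all, and Tarbp2 encodes TRBP, the dsRNA-binding partner of Dicer and an inhibitor of PKR. Adarb1 had 6.87, 6.66 and 6.73 in controls, 6.46, 6.64 and 6.66 with DHX9-1271, and 6.64, 6.61 and 6.50 with DHX9-837. Tarbp2 had 6.51, 6.66 and 6.42 in controls, 6.28, 6.41 and 6.33 with DHX9-1271, and 6.29, 6.41 and 6.41 with DHX9-837. For both genes all 6 knockdown arrays lay below the controls, by 0.0019 for the closest pair of Adarb1 arrays and by 0.0093 for that of Tarbp2, and some arrays shared an identical value. The log2 fold of Adarb1 was -0.17 with each hairpin, and that of Tarbp2 was -0.19 with DHX9-1271 and -0.16 with DHX9-837. None of these passed limma's test (adjusted p = 0.253, 0.163, 0.179 and 0.168).

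**Figure D2:**
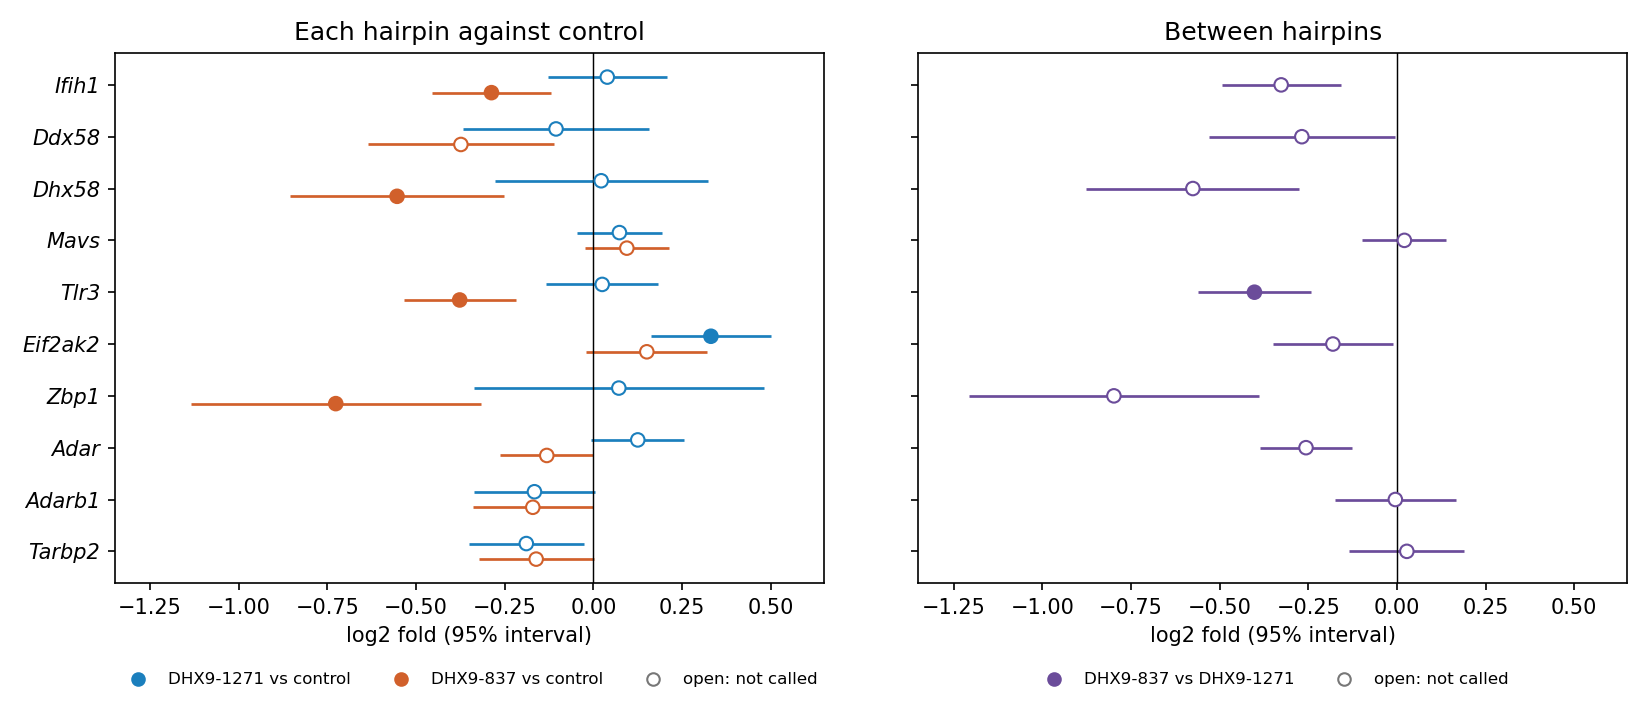
Log2 fold of each gene with its 95% interval from limma, for each hairpin against control (left) and DHX9-837 against DHX9-1271 (right). Filled points passed an adjusted p under 0.05, which Tlr3 alone did between hairpins (-0.40).

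For the arrays of both hairpins together against control, 1 of the 10 genes rose and 0 fell by limma (1 and 5 at an unadjusted p under 0.05), against 8.13% and 5.33% of all genes (13.5% either way). Eif2ak2 was the gene that rose (log2 fold 0.24, SE 0.065, adjusted p = 0.0421). Its call ended without any 1 of the control arrays (adjusted p = 0.131, 0.110 and 0.0540 for replicates 1 to 3) or of the DHX9-1271 arrays (0.0763, 0.0677 and 0.0906), and the group values lie at different heights above control. Tlr3 (-0.18, adjusted p = 0.0900), Dhx58 (-0.27, 0.164) and Zbp1 (-0.33, 0.204) averaged a fall in DHX9-837 with almost no difference in DHX9-1271. Without DHX9-837 replicate 3 the pooled contrast called 3 genes, Dhx58 and Tlr3 down and Eif2ak2 up. Adarb1 (-0.17, 95% interval -0.32 to -0.022, adjusted p = 0.123) and Tarbp2 (-0.18, interval -0.32 to -0.035, adjusted p = 0.0974) were close to each other in both hairpins and did not pass. Besides Adarb1 and Tarbp2, no gene of the 10 had all 6 knockdown arrays on 1 side of the controls, against 6.73% of all genes that lay below in this way and 10.7% above (17.5% either way). Exact two-sided permutation of the arrays gave p = 0.0714 for Eif2ak2, 0.0238 for Adarb1 and 0.0119 for Tarbp2, the last being the smallest p that 6 arrays against 3 allow. For Adarb1 and Tarbp2, which limma did not call, the low p restates that all 6 arrays lay below the controls. It is no further support, since 17.5% of all genes separate on 1 side or the other. For 3 arrays against 3 the smallest exact p is 0.1, which every gene whose groups do not overlap reaches, called by limma or not, so it does not tell the called genes from the others.

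Between the hairpins Dhx9 had a log2 difference of -0.021 (95% interval -0.14 to 0.094), and Tlr3 was lower with DHX9-837 than with DHX9-1271. For 6 of the 10 genes, Ifih1, Ddx58, Dhx58, Tlr3, Zbp1 and Adar, every DHX9-837 array lay below every DHX9-1271 array and for 0 above, against 12.6% and 9.37% of all genes (21.9% either way). Limma called 1 fall, that of Tlr3, and 0 rises (7 falls and 0 rises at an unadjusted p under 0.05), where 1.9% of all genes were called, 1.21% down and 0.696% up. Tlr3 was lower by -0.40 (SE 0.070, 95% interval -0.56 to -0.24, adjusted p = 0.0304). That call ended without DHX9-1271 replicate 1, 2 or 3 (adjusted p = 0.110, 0.0688 and 0.136) and without DHX9-837 replicate 1 or 2 (0.0927 and 0.0911), while its log2 difference stayed between -0.47 and -0.35. Zbp1 (-0.80, interval -1.21 to -0.39, adjusted p = 0.0645), Dhx58 (-0.58, interval -0.88 to -0.27, adjusted p = 0.0678), Ifih1 (-0.33, interval -0.49 to -0.16, adjusted p = 0.0651) and Adar (-0.26, interval -0.39 to -0.13, adjusted p = 0.0642) missed the threshold. All 4 passed with the filter at the 50th percentile (0.0429, 0.0455, 0.0420 and 0.0394). Ifih1 passed without control replicate 2 (0.0332) and Dhx58 without DHX9-837 replicate 3 (0.0171). Of the genes that fell with DHX9-837, only Tlr3 thus differed between hairpins by this test. Mavs (0.021), Adarb1 (-0.0046) and Tarbp2 (0.028) had the smallest differences between hairpins, with intervals of -0.098 to 0.14, -0.17 to 0.17 and -0.13 to 0.19.

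Other genes of the sensors' pathways were read from lists. Of the adaptors, kinases and ubiquitin ligases downstream of the sensors (18 tested), 2 rose with DHX9-1271, Irf7 (log2 fold 0.40, adjusted p = 0.0422), the interferon-inducing transcription factor, and Rnf125 (0.39, adjusted p = 0.0364), a ubiquitin ligase that turns over RIG-I and MDA5. With DHX9-837 Sting1 (0.36), the adaptor of cytosolic DNA sensing, and Pcbp2 (0.23), which promotes the breakdown of MAVS, rose. Over all genes 2.83% rose with DHX9-1271 and 8.67% with DHX9-837. Sting1 with DHX9-1271 (0.28) and Rnf125 with DHX9-837 (0.23) also had all arrays above the controls, without a call. In both hairpins together Rnf125 (0.31), Sting1 (0.32) and Irf3 (0.20) were called up, calls that ended in 2, 10 and 10 of 16 alternatives. Over all genes 8.13% rose and 5.33% fell in that pooled contrast. The list medians were 0.10 with DHX9-1271 and 0.043 with DHX9-837. Each of the 4 calls with 1 hairpin ended in 8 to 11 of 17 alternatives. Of the interferon ligands, Ifnb1, Ifne, Ifnk and Ifng had mean levels of 3.40 to 4.92, under the level filter, and were not tested. The ligands Ifna4, Ifnl2 and Ifnl3 passed the filter, and none of them was called in any comparison. Of the 9 tested ligands and receptors, the type I receptor chain Ifnar1 rose with DHX9-1271 (0.27, adjusted p = 0.0450). The interferon-gamma receptor chain Ifngr2 (-0.31, adjusted p = 0.00582) and the interferon-lambda receptor chain Il10rb (-0.20, adjusted p = 0.0263) fell with DHX9-837. The Ifngr2 call held in all 17 alternatives, while that of Il10rb ended in 6 (adjusted p up to 0.0806) and that of Ifnar1 in 13 (up to 0.149). Pooled over both hairpins, Il10rb (-0.20), Ifngr2 (-0.20) and Ifnar1 (0.21) were called in the same directions. Those pooled calls ended in 1, 4 and 9 of 16 alternatives. Over all genes 2.83% rose with DHX9-1271 and 6.91% fell with DHX9-837.

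Active OAS enzymes make 2-5A, the activator of the RNA-cleaving enzyme RNase L, when they bind dsRNA, and the activity of each gene's product was not measured. Of 7 OAS genes tested, Oas1b rose with DHX9-1271 (log2 fold 0.59, SE 0.093, adjusted p = 0.0130 by limma), whereas Oasl2 (-0.41, SE 0.090, adjusted p = 0.0169) and Oas2 (-0.46, SE 0.13, adjusted p = 0.0491) fell with DHX9-837. Over all genes 2.83% rose with DHX9-1271, 6.91% fell with DHX9-837 and 1.21% were lower with DHX9-837 than with DHX9-1271. The list median was 0.21 with DHX9-1271 and -0.29 with DHX9-837. Between hairpins Oas2 (-0.65, adjusted p = 0.0486) and Oasl2 (-0.52, adjusted p = 0.0298) were lower with DHX9-837, and all 7 had a difference below 0. The calls against control ended in 1 (Oas1b), 3 (Oasl2) and 11 (Oas2) of 17 alternatives, and those between hairpins in 7 (Oasl2) and 9 (Oas2). In both hairpins together Oas1b was called up (0.39, adjusted p = 0.0140 by limma), where 8.13% of all genes rose. That pooled call ended in 1 of 16 alternatives. Probes may not tell the near-identical Oas1 copies apart, which makes the value of Oas1b uncertain.

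Of 24 other interferon-stimulated genes tested, 3 rose with DHX9-1271, Ifitm3 (0.28, adjusted p = 0.0131), Stat2 (0.39, adjusted p = 0.0387) and the antiviral enzyme gene Rsad2 (0.74, adjusted p = 0.0482), and 21 had a log2 fold above 0. Over all genes 2.83% rose with that hairpin. With DHX9-837, Ifitm3 rose (0.36, adjusted p = 0.00114), Samd9l, a restriction factor of poxviruses, fell (-0.83, SE 0.055, adjusted p = 8.05e-05), and so did Parp9 (-0.34, adjusted p = 0.0420). Those counts, 1 up and 2 down of 24, do not set the list apart from all genes (8.67% up and 6.91% down). The medians were 0.22 and -0.054, beside 0.0057 and -0.0012 for all genes. Between hairpins Samd9l (-0.67, adjusted p = 0.00194) and Parp9 (-0.48, adjusted p = 0.0439) were lower with DHX9-837, where 1.21% of all genes were. In that contrast 23 of the 24 had a difference below 0 (median -0.34, and -0.0040 for all genes). Samd9l and Ifitm3 kept their DHX9-837 calls under all 17 alternatives. The calls of Rsad2, Stat2 and Parp9 against control ended in 11, 9 and 8 of them, that of Ifitm3 with DHX9-1271 in 3, and that of Parp9 between hairpins in 10. In both hairpins together Ifitm3 (0.32) and Bst2 (0.40) were called up and Samd9l (-0.49) down, against 8.13% and 5.33% of all genes. Those pooled calls ended in 0, 8 and 0 of 16 alternatives.

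**Figure D3:**
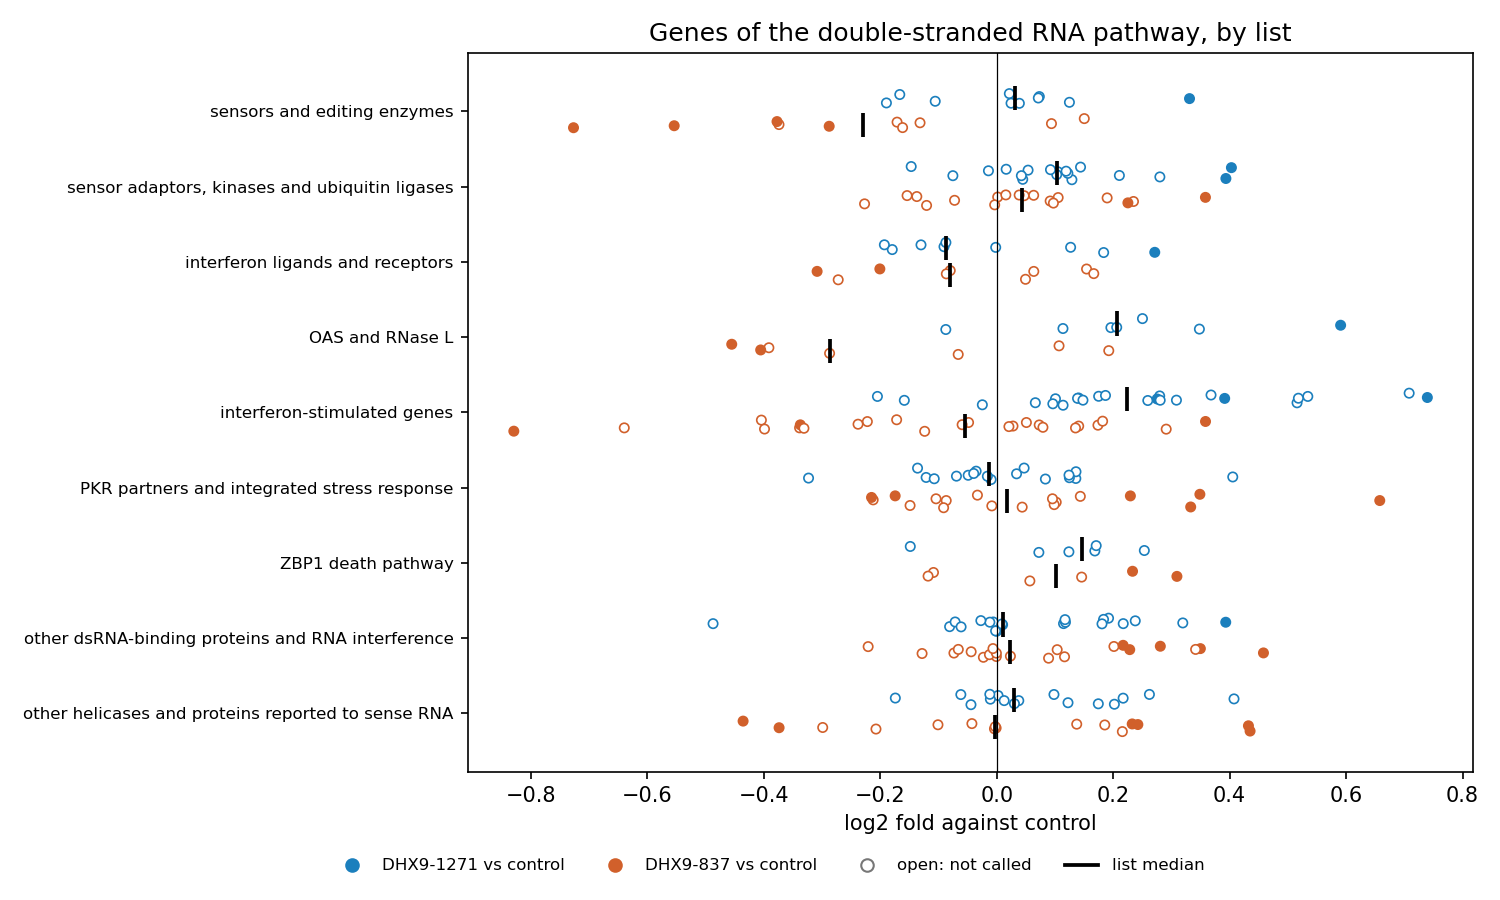
Log2 fold against control of each tested gene of the 9 lists (rows), for DHX9-1271 (blue) and DHX9-837 (orange). Filled points passed an adjusted p under 0.05, and black bars are list medians (for the OAS genes 0.21 and -0.29). Dhx9, at -1.01 and -1.03, is not drawn but is counted in the median of its list.

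Lists for the PKR and ZBP1 branches were read in the same way. Of 18 tested partners of PKR and genes of the integrated stress response, none passed with DHX9-1271 (by limma 2 up and 2 down at an unadjusted p under 0.05). With DHX9-837 4 rose and 2 fell, against 8.67% and 6.91% of all genes. Those that rose were Atf4 (0.23, adjusted p = 0.0132), Chac1 (0.66, adjusted p = 0.0151), a target of ATF4, Eif2ak3 (0.35, adjusted p = 0.0126), which encodes PERK, another kinase of eIF2-alpha, and Eif2b1 (0.33, adjusted p = 0.0240). The falls were those of Ppp1r15b (-0.21, adjusted p = 0.0268), a partner of the eIF2-alpha phosphatase, and Eif2ak1 (-0.17, adjusted p = 0.0497), the heme-regulated eIF2-alpha kinase. These 2 falls were not put through the alternatives, and that of Eif2ak1 was close to the threshold. The stress-response factor Atf3 fell in both hairpins together (-0.27, adjusted p = 0.0312), a call lost in 6 of 16 alternatives. Atf4 (0.18), Chac1 (0.53) and Eif2ak3 (0.24) were called up in that contrast too, calls lost in 2, 2 and 8 of 16. Over all genes 8.13% rose and 5.33% fell in the pooled contrast. The list median with DHX9-837 was 0.018. Of 6 tested genes of the ZBP1 death pathway, Ripk3 (0.31, adjusted p = 0.0369), the kinase that ZBP1 recruits, and Casp6 (0.23, adjusted p = 0.0421) rose with DHX9-837. None passed with DHX9-1271, where 3 rose at an unadjusted p under 0.05 and the Zbp1 log2 fold was 0.071. In both hairpins together Ripk3 and Casp6 were also called up, at similar log2 folds of 0.28 and 0.20 (adjusted p = 0.0349 and 0.0463 by limma). The DHX9-837 calls ended in 8 (Ripk3, adjusted p up to 0.113) and 11 (Casp6, up to 0.125) of 17 alternatives, those of Chac1 and Eif2b1 in 1 and 6, and those of Atf4 and Eif2ak3 in 0. Pooled over hairpins, the calls of Ripk3 and Casp6 ended in 9 and 11 of 16.

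Among other dsRNA-binding proteins and genes of RNA interference (21 tested), Zfr, which encodes a zinc finger protein that binds dsRNA, rose with both hairpins (0.39, adjusted p = 0.0109, and 0.46, adjusted p = 0.00155). With DHX9-837, 5 rose, with Ago2 (0.35, adjusted p = 0.00590), Drosha (0.23) and Ilf2 (0.28) besides Zfr, where 8.67% of all genes rose. Zfr was the 1 gene of the list called with DHX9-1271, where 2.83% of all genes rose. In both hairpins together Ago2 (0.29), Drosha (0.21) and Ilf2 (0.25) were called up as well. Those pooled calls ended in 0, 0 and 2 of 16 alternatives, and 8.13% of all genes rose in that contrast. The list medians were 0.010 and 0.024. The DHX9-837 calls of Zfr and Ago2 held in all 17 alternatives, while those of Drosha and Ilf2 ended in 2 and 3 and that of Zfr with DHX9-1271 in 2. Of 17 other helicases and proteins reported to sense RNA, Dhx9 itself among them, 4 rose and 3 fell with DHX9-837, against 8.67% and 6.91% of all genes, and 1 of the 3 falls was that of Dhx9. The RNA-binding inflammasome gene Nlrp6 fell (-0.37, SE 0.052, adjusted p = 0.00230), as did Nlrp1b (-0.44, adjusted p = 0.000919), and the helicase gene Ddx41 rose (0.43, adjusted p = 0.00408). In both hairpins together Ddx41 (0.32) was also called up, and Nlrp1b (-0.30) and Nlrp6 (-0.21) were called down, against 8.13% and 5.33% of all genes. Nlrp6 (-0.33, adjusted p = 0.0218) and Nlrp1b (-0.26, adjusted p = 0.0405) also differed between hairpins. With DHX9-837 Nlrp1b averaged 5.19, a level below the filter, where a fold is poorly measured. Those differences between hairpins lost their calls in 6 of 17 (Nlrp6) and 9 of 16 (Nlrp1b) alternatives, whereas the falls with DHX9-837 against control held in all. The pooled calls of Ddx41, Nlrp1b and Nlrp6 ended in 0 of 16, 0 of 15 and 2 of 16.

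The genes whose centred profile over the 9 arrays was nearest to each called sensor were found by the root mean square (RMS) difference in log2 units among 14466 named genes. For Dhx58 they were Irgm2 (0.084), Herc6 (0.089) and Oas3 (0.11), where the RMS of the Dhx58 profile itself was 0.31. For Zbp1 they were Ifit1bl1 (0.14), Trpm6 (0.16) and Ifi47 (0.18), against 0.42 for Zbp1. Tlr3 was nearest to Stk10 (0.051), Plekhn1 (0.061) and Fgl2 (0.063), against 0.20. Ifih1 was nearest to Mast2 (0.048), Slc16a1 (0.048) and St3gal5 (0.050), against 0.16, and Eif2ak2 to Mitd1 (0.050), Tmem175 (0.060) and Lair1 (0.072), against 0.16.

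Interferon-stimulated genes and cell type markers also varied among arrays of 1 group. The mean log2 level of the 24 interferon-stimulated genes was 8.35, 8.06 and 8.36 in controls, 8.58, 8.43 and 8.51 with DHX9-1271, and 8.10, 8.01 and 8.34 with DHX9-837. Control replicate 2, with 8.06, was also the lowest control for Ifih1, Ddx58, Dhx58, Zbp1 and Adar, and DHX9-837 replicate 3, with 8.34, was the highest of its group for Ddx58, Dhx58, Tlr3, Zbp1, Eif2ak2 and Adar. Ifih1 and Tlr3 did not follow this throughout, since Ifih1 was highest in DHX9-837 replicate 2 and Tlr3 was lowest in control replicate 1 and DHX9-837 replicate 1. The mean of the 9 tested T and NK cell markers was 6.76 to 6.89 in controls, 6.83 to 6.85 with DHX9-1271, and 6.68, 6.46 and 6.99 with DHX9-837. Its lowest value was in replicate 2, where Zbp1, Dhx58 and Ddx58 were lowest. The granzyme genes Gzma (SD 0.99) and Gzmb (SD 0.63) had the widest spread among the DHX9-837 arrays. Their log2 folds were -1.08 and -0.18, and neither was called (adjusted p = 0.138 and 0.692 by limma). With DHX9-837 Gzma averaged 4.88, a level below the filter, where a fold is poorly measured. Trac (SD 0.13), Cd3e (SD 0.16) and Cd3g (SD 0.29), of the T cell receptor complex, varied less, with log2 folds of -0.032, -0.080 and -0.15. Cd8a (-0.27) had all DHX9-837 arrays below the controls but was not called (adjusted p = 0.0805 by limma). Of those 9 markers Cd4 rose with DHX9-837 (0.85), the 1 with a log2 fold above 0, and the list median was -0.15. The mean of the 12 macrophage and dendritic cell markers was 6.97 to 7.09 in controls, 7.13 to 7.25 with DHX9-1271 and 7.24 to 7.29 with DHX9-837. Of these, 2 were called up with DHX9-1271 (Csf1r and C1qc) and 5 with DHX9-837 (Csf1r, C1qc, Cd68, C1qb and Mrc1). Over all genes 2.83% and 8.67% were called up. The dendritic cell markers of the list, Itgax, Flt3, Xcr1 and Siglech, were not called with either hairpin. Their log2 folds ran from -0.16 (Xcr1) to 0.22 (Itgax) with DHX9-1271 and from -0.20 (Xcr1) to 0.050 (Itgax) with DHX9-837. B and plasma cell markers (7 tested) averaged 7.40, 7.50 and 7.45 in controls, 7.63, 8.15 and 7.79 with DHX9-1271, and 8.09, 7.72 and 8.06 with DHX9-837. Control replicate 2 was thus the highest control for B cell markers and the lowest for interferon-stimulated genes. Of the 7 B and plasma cell markers, 2 were called up with DHX9-1271 and 3 with DHX9-837, against 2.83% and 8.67% of all genes. Endothelial markers (6 tested) averaged 7.90 to 7.97, 8.14 to 8.25 and 8.17 to 8.21 in controls, DHX9-1271 and DHX9-837. With each hairpin 4 of the 6 were called up, against 2.83% (DHX9-1271) and 8.67% (DHX9-837) of all genes. Epithelial markers (10 tested) averaged 11.59 to 11.64, 11.64 to 11.69 and 11.66 to 11.71, with Krt18 up (0.49 and 0.82 with DHX9-1271 and DHX9-837) and Slc26a3 down (-0.27 and -0.63). The other 8 were not called with DHX9-1271. With DHX9-837 Krt8 (0.19) and Krt19 (0.30) were also called up and 6 of the 10 were not called. Over all genes 2.83% rose and 1.58% fell with DHX9-1271, and 8.67% rose and 6.91% fell with DHX9-837. Fibroblast markers (6 tested) averaged 8.98 to 9.30, 9.35 to 9.46 and 9.28 to 9.42, smooth muscle (6 tested) 11.17 to 11.36, 11.25 to 11.39 and 10.95 to 11.20, and enteric neurons and glia (3 tested) 6.31 to 6.38, 6.35 to 6.47 and 6.31 to 6.44. Of the fibroblast markers, 0 were called with DHX9-1271 and 2 were called up with DHX9-837. No marker of smooth muscle or of enteric neurons and glia was called with either hairpin. The part of the cell makeup in the differences of the sensors was not tested.

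**Figure D4:**
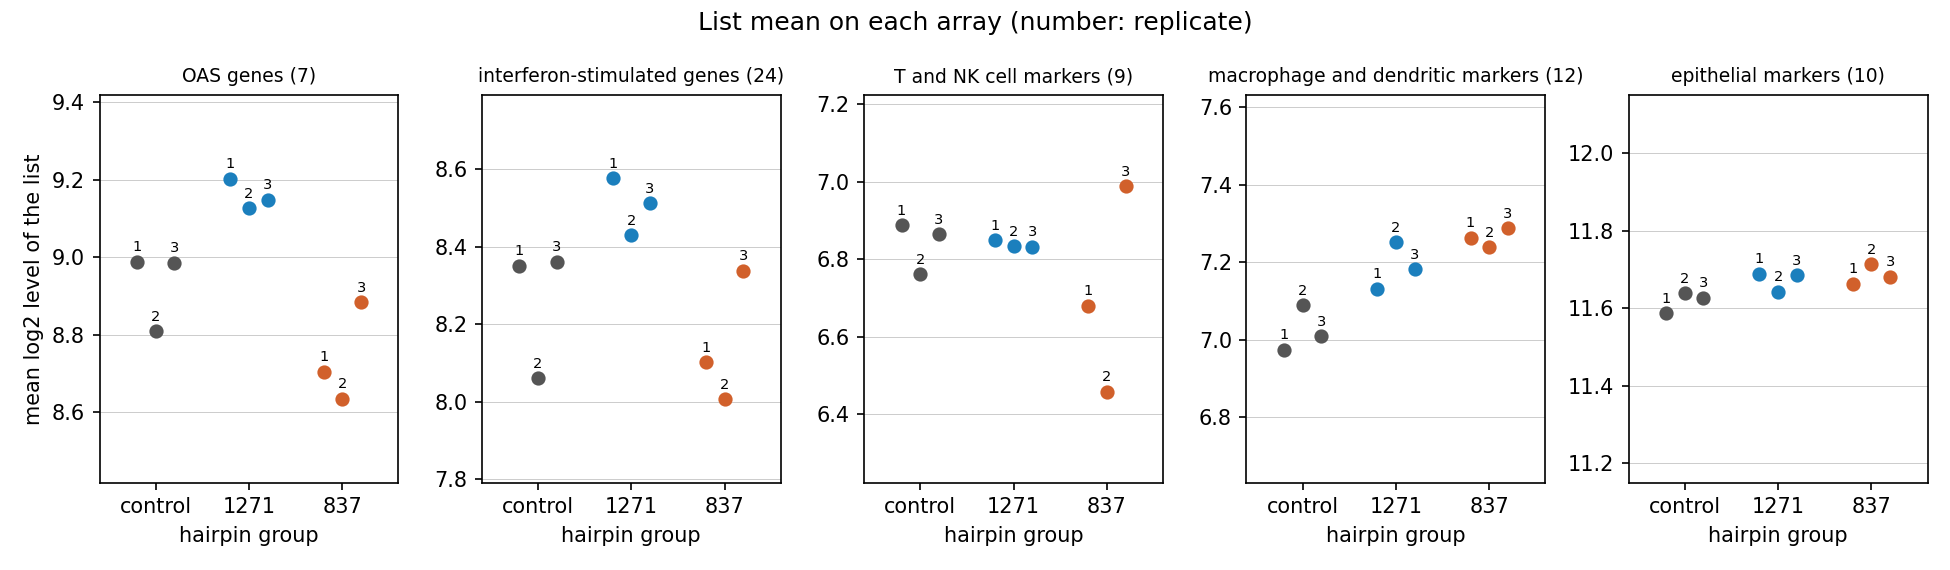
Mean log2 level of 5 gene lists on each array (the number at a point is the replicate, the number in a title is the genes tested). DHX9-837 replicate 3 stands above the other DHX9-837 arrays for OAS genes, interferon-stimulated genes (8.34) and T and NK cell markers (6.99).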

How the data were processed

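The authors deposited log2 expression levels made by RMA with oligo 1.30.0 in R 3.1.1, per the submitters' processing notes, from Affymetrix Mouse Gene 2.0 ST arrays of biotin-labelled total RNA, per the labels' protocols. The sources used here give neither RMA options nor the definition of probe sets nor a build. RMA equalizes array distributions, so a shift of most genes would not be seen. Arrays have no read depth, and their number limits the precision.

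The platform's annotation named 24015 probe sets and left 958 unnamed. The brightest was kept per symbol, and genes under the 30th percentile of mean level were left out. Limma 3.58.1 in R 4.3.3 fitted group means over all 9 arrays (6 residual and 2.84 prior degrees of freedom), with 4 contrasts and two-sided Benjamini-Hochberg adjustment over 16808 genes. The script was tested on simulated data. Members, lists (at most 4 genes of smallest p named per list and contrast, plus Eif2ak1, Ppp1r15b and the marker genes, chosen after their values were seen) and tests were chosen with earlier results of these data known. List genes without a probe set named here, 15, were not analysed here. Figures used matplotlib 3.10.9.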

Additional observations from a re-analysis of the deposited data

Results flagged for a closer look

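Some results differed between the hairpins. Tlr3 was lower with DHX9-837 than with DHX9-1271 by a log2 difference of -0.40 (adjusted p = 0.0304 by limma, below in 3 of 3 arrays, call lost in 7 of 17 alternatives). Every DHX9-1271 array of Adar lay above the controls and every DHX9-837 array below them. The difference between hairpins was -0.26 and missed the threshold (adjusted p = 0.0642). Among related genes the same contrast was called for Samd9l (-0.67), Oas2 (-0.65), Oasl2 (-0.52), Parp9 (-0.48), Nlrp6 (-0.33) and Nlrp1b (-0.26). Each of these 6 genes had all 3 DHX9-837 arrays below all DHX9-1271 arrays. The Samd9l call held in all 17 alternatives, and the other 5 ended in 6 to 10 of them. Why the hairpins differ was not tested.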

How the results depend on the processing

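The fall of Tlr3 with DHX9-837 kept its call under all 17 alternatives. No called fold of the 10 genes changed sign under any alternative. The number of the 10 called with DHX9-1271 (1) was 0 with no level filter and with arrays centred on their median, and 0 to 1 on leaving out an array. With DHX9-837 (4) it was 1 with only the compared groups in the fit and 1 to 5 on leaving out an array. For both hairpins (1) it was 0 with no filter, 0 with centred arrays, 2 with cyclic loess and 0 to 3 on leaving out an array. Between hairpins (1) it was 0 with no filter, 5 with the filter at the 50th percentile, 4 with trend and robust moderation, and 0 to 2 on leaving out an array. The cause was not tested, except that fewer genes tested or fewer arrays change the adjustment and the spread.

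Over all genes, 741 calls with DHX9-1271 became 408 with no filter, 336 with the compared groups alone and 128 to 714 on leaving out an array. With DHX9-837, 2618 became 1674 with the compared groups alone. For both hairpins 2263 became 1363 to 2066 on leaving out an array. Between hairpins 320 became 140 with no filter, 493 with the higher filter, 554 with trend and robust moderation, and 28 to 360 on leaving out an array. Of 62 calls of other named genes, 41 ended in at least 1 alternative.

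The replicate number as a block gave 1, 4, 1 and 2 called genes of the 10 in the order above, and 407, 2284, 1923 and 168 over all genes. With it Ifih1 lost its DHX9-837 call (adjusted p = 0.0560), Ddx58 gained one (0.0273), and Zbp1 passed between hairpins (0.0355). Deviations of same-numbered arrays of different groups correlated at -0.37 to 0.26, with both signs. With so few arrays per group, these correlations cannot decide whether the numbers pair the samples.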
